A study of Mus musculus with 15 samples.

Results

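The 8 genes described here encode the 5 subunits of NF-kappaB (Nfkb1, Nfkb2, Rel, Rela and Relb) and 3 of its inhibitors (Nfkbia, Nfkbie and Tnfaip3), out of 21883 protein-coding genes of the annotation. They were chosen by name as a pathway and selected on SMC3 calls at Nfkbia, which had a peak near a gene end in every control library and in no shYY1 library. Their peaks were those overlapping the gene span with 10 kb added on each side, called the window below, and numbered 94 of the 95112 peaks in 12 lists.

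NF-kappaB factors are pairs of Rel-family proteins that bind kappaB sites in DNA. In resting cells IkappaB proteins hold them in the cytoplasm; receptors of inflammation trigger kinases that have the IkappaB proteins destroyed, and the freed pairs enter the nucleus. Genes for several of the inhibitors are themselves known NF-kappaB targets, which gives the pathway a negative feedback. In blood stem and progenitor cells the pathway is known for its part in inflammatory signalling, survival and self-renewal.

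HPC-7, the cell line of the study, is a mouse line with features of early blood progenitors that was obtained from embryonic stem cells. Binding was mapped by CUT&Tag, where a transposase tethered to an antibody inserts sequencing adapters beside the bound protein. HPC-7 cells with an shRNA against YY1 (shYY1, 3 libraries for SMC3) were set against control HPC-7 cells, given as WT in the genotype label and shLUC in the description, with 3 libraries each for the cohesin subunit SMC3, the zinc finger factor YY1 and the active promoter mark H3K4me3. All come from 1 cell line at about 150000 cells per reaction, no time after shRNA delivery is stated, and the 3 IgG libraries are not used here. YY1 was profiled in control cells alone, which leaves the degree of its depletion in the shYY1 libraries unmeasured. The sources do not explain the 2 in shYY1-2, as the descriptions name these cells.

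The lists held 2631 to 3213 peaks for SMC3 in shYY1 cells, 2061 to 4595 for SMC3 in control cells, 3750 to 10699 for YY1 and 16763 to 17895 for H3K4me3. The mean number of SMC3 peaks was 2959 ± 298 in shYY1 and 3722 ± 1439 in control libraries (SD, n = 3 each), a difference of -764 (exact two-sided permutation p = 0.4, the smallest possible being 0.1). The lists give positions without height or read count, so depth is unknown, and at any gene a shallow library and absent binding cannot be told apart. The protocol names a single SMC3 antibody, from Abcam, but only the first SMC3 library of each arm has that name in its description. As a check of the line, 9 of 12 blood stem and progenitor markers had H3K4me3 within 1000 bp of a gene end and 12 had it in the window. The counts were 3 and 5 of 9 mature lineage markers, 0 and 1 of 3 pluripotency markers and 0 and 0 of 4 markers of other tissues. Of all protein-coding genes, 46.2% had it at an end and 57.9% in the window. The mature lineage markers were thus near that share in the window and below it at an end.

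Promoter sequence was available from RefSeq (build GRCm38.p6, the assembly of mm10) for 6 of the 8 genes, as 9 windows from 250 bases before to 50 bases after an annotated start. Those of Nfkbia, Tnfaip3, Nfkb2, Rel and Rela are shown because YY1 or SMC3 peaks lay on or beside them and because they differ in kappaB matches. Each is written 5′ to 3′ on the strand of the gene, in lower case, with matches to the kappaB consensus (GGG, a purine, any base, A or T, 2 pyrimidines and CC, on either strand) in capitals. Nfkbia is on the minus strand at chr12:55492598-55492897, Tnfaip3 on the minus strand at chr10:19015361-19015660, Rel on the minus strand at chr11:23770920-23771219, Nfkb2 on the plus strand at chr19:46304487-46304786 and Rela on the plus strand at chr19:5637291-5637590.
Nfkbia: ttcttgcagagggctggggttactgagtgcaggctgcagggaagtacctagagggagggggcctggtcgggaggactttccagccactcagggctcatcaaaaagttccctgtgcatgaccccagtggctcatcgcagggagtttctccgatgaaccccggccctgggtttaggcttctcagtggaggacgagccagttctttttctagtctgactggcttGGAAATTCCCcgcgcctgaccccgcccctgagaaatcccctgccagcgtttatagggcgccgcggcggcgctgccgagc
Tnfaip3: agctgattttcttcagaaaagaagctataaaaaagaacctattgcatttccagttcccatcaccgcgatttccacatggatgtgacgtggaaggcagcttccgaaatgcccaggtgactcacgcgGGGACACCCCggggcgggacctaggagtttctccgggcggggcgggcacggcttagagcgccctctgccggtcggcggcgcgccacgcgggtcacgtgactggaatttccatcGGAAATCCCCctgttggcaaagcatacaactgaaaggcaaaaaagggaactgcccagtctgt
Nfkb2: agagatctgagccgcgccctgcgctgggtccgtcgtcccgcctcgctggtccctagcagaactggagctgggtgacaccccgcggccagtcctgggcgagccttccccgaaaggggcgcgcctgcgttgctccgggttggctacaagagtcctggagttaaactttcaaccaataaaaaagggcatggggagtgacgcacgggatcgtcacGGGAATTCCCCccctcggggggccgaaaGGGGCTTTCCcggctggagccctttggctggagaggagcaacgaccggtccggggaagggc
Rel: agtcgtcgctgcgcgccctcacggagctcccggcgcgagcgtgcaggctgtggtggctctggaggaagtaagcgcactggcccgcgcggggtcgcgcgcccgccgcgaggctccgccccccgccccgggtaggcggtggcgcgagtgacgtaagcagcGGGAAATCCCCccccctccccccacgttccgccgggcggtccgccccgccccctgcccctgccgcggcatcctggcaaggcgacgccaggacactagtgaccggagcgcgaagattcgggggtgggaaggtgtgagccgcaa
Rela: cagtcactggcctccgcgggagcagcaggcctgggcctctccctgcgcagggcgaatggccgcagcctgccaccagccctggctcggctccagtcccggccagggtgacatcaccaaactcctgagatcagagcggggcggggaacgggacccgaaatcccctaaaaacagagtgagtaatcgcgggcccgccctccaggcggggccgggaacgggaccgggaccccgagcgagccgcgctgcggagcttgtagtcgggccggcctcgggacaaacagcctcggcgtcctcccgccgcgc

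The kappaB consensus was found in promoters of 5 of the 6 genes, Rela being the exception, and in 7 of their 9 promoter windows, against 4.51% of all 32851 promoter windows of the same length. Counted from the start, with negative positions upstream, the first base of the match was at -29 in Nfkbia, -106 in Nfkbie and -125 and -12 in Tnfaip3. Rel had overlapping matches at -92 and -91, the first of which reads as a match on both strands. Nfkb2 had overlapping matches at -39, on both strands, and -38, and another at -11 of its first listed start, and matches at -236 and 10 of its second; the last of these also lies in the window of its last listed start, at -225. The YY1 core CCATNTT was in 0 of the 9 windows, against 16.1% of all promoters; the longer form GCCATNTT, which contains it, was likewise in 0 against 6.05%. TGANTCA, the AP-1 motif, was in 3 of 9 (7.81% of all), GGGGCGGGG, an SP motif, in 4 (11.4%), CCGGAAG, an ETS motif, in 1 (8.86%), AGGGGGC, a CTCF core, in 3 (10.6%) and TGACGTCA, the CRE, in 0 (1.79%). All motifs were read on both strands, and a match describes letters only.

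H3K4me3 was called at all 8 genes and YY1 and SMC3 at some of them. A peak in at least 2 of 3 libraries, anywhere in the window, was found at 8 of 8 genes for H3K4me3 (57.9% of all protein-coding genes), 5 for YY1 (40.5%), 4 for SMC3 in shYY1 cells (16.6%) and 5 for SMC3 in control cells (21.6%). Among all genes with H3K4me3 in the window the shares were 69.5% for YY1, 28.4% for shYY1 SMC3 and 37.1% for control SMC3, so with H3K4me3 taken into account the YY1 count of 5 in 8 was near the background. The difference between the arms, 4 genes in shYY1 against 5 in control cells, was Nfkbia alone, the gene selected for it, and turned to 4 against 3 with equal numbers of the longest peaks from each SMC3 list. SMC3 was called in all 6 libraries at Tnfaip3, Nfkb2 and Relb, 3 of 8 genes, against 8.68% of all genes. Near the ends of the span (up to 1000 bp away), the counts were 7 for H3K4me3 (46.2% of all genes), 4 for YY1 (28.2%), 2 for shYY1 SMC3 (10.5%) and 3 for control SMC3 (13.8%); 2 genes, Tnfaip3 and Relb, had SMC3 there in all 6 libraries (5.42%). Here too Nfkbia made the whole difference between the arms, and with equal numbers of longest peaks the SMC3 counts were 2 in each arm. Restricted to genes marked by H3K4me3 at an end, the background was 61.1% for YY1, 22.7% for shYY1 SMC3 and 29.8% for control SMC3. The shares with SMC3 in all 6 libraries, 8.68% and 5.42%, are of all genes, with or without H3K4me3, and were not restricted.

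**Figure D1:**
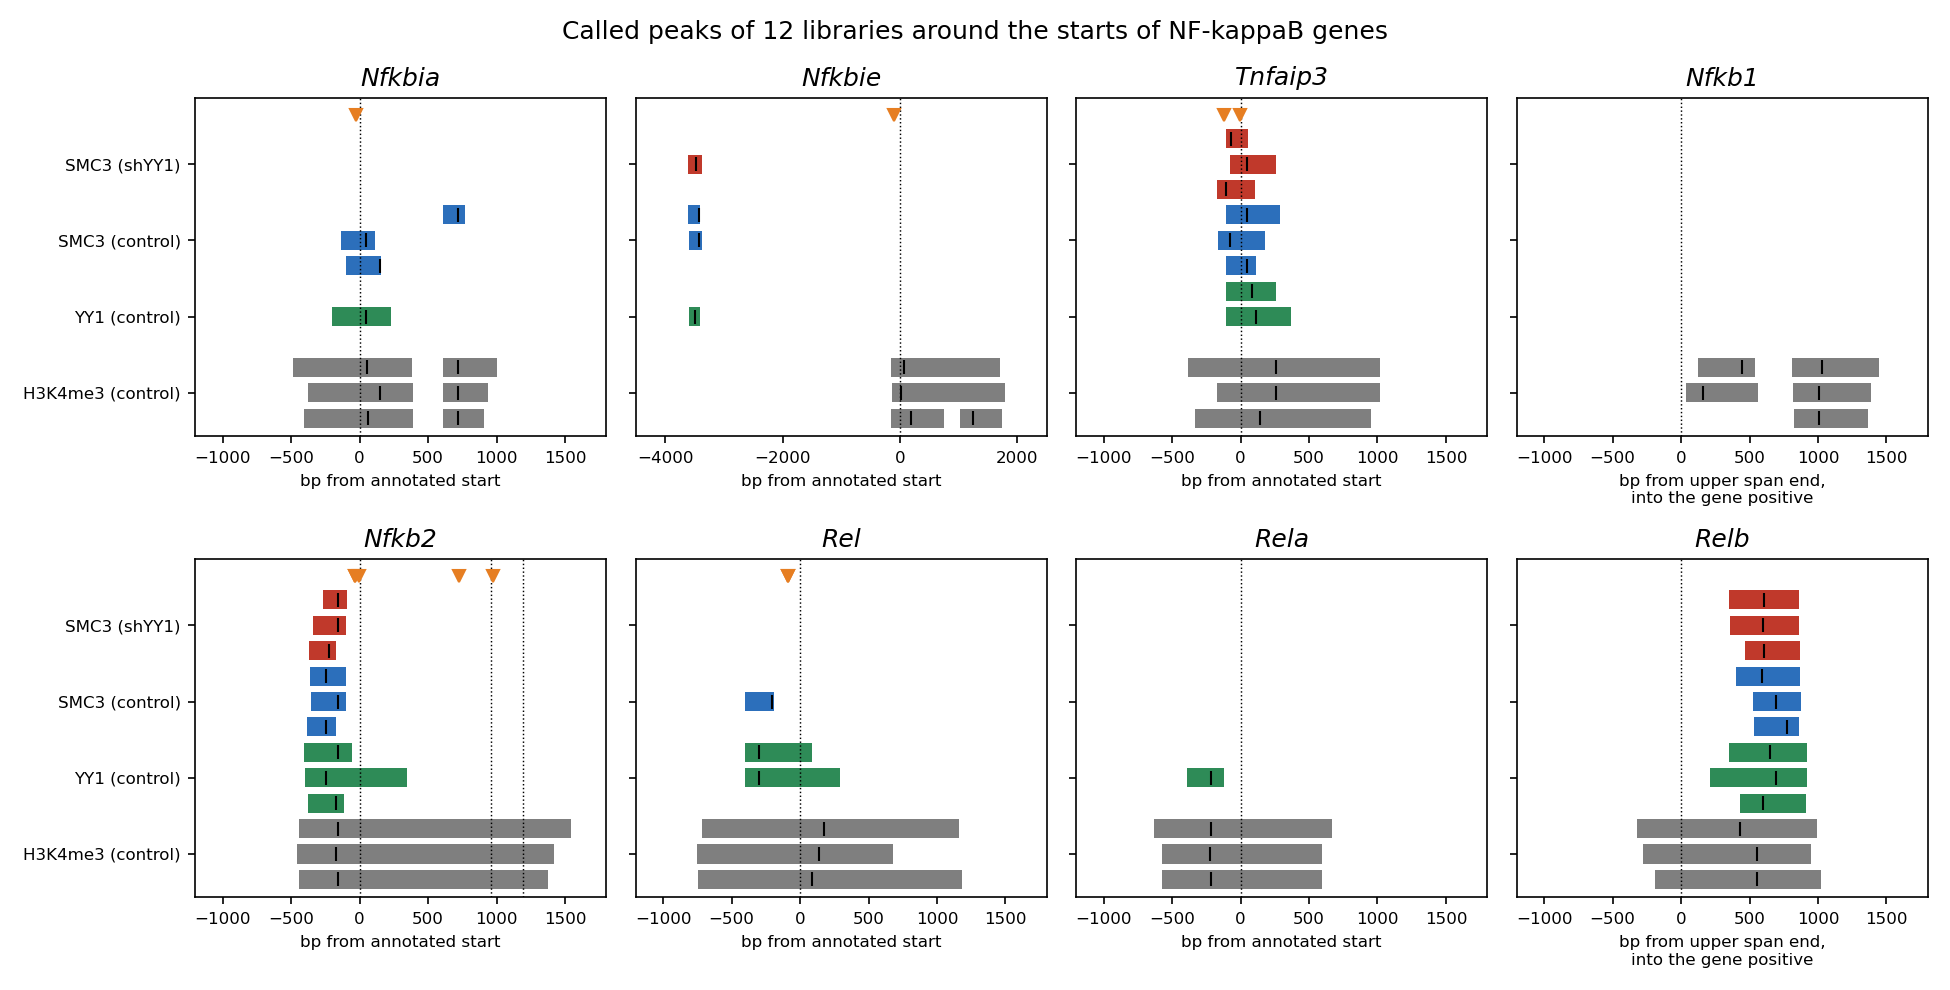
Called peaks of each library (bars, 1 row per replicate, with the summit as a black tick) against the distance in bp from the start nearest a span end, or from the upper span end for Nfkb1 and Relb; dotted lines mark annotated starts and orange triangles kappaB matches. SMC3 bars of both arms stand at Tnfaip3, Nfkb2 and Relb, whereas at Nfkbia there are 3 control SMC3 peaks, at 2 places, and 0 in shYY1.

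Nfkbia, which encodes IkappaB alpha, the inhibitor that NF-kappaB itself is known to induce, lies on chromosome 12 at 55489409 to 55492647. SMC3 peaks covered 0, 0 and 0 bp of its window in the shYY1 libraries, against 158, 251 and 252 bp in the control libraries. The arms therefore did not overlap, with a mean of 220 ± 54.0 bp in control cells (SD, n = 3). This is the contrast on which the gene was selected, and it is given without a test; the same split of 0 shYY1 and 3 control libraries was met at an end by 29 genes, or 0.133%, and in the window by 0.228%. The reverse pattern was found at 0 of the 8 genes, at 0.00457% of all genes for gene ends and at 0.0% for windows.

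The control peaks at Nfkbia were not at 1 place. In control libraries 2 and 3 they lay across the start, at 55492536 to 55492786 and 55492492 to 55492743, and both contained the kappaB match. In the first, whose description names Abcam, the peak lay inside the gene at 55491878 to 55492035, 612 bp from the start, with its summit at 55491927. All 3 H3K4me3 libraries had a separate peak there with a summit at that same base. So SMC3 was called at the start in 2 of 3 control libraries and inside the gene in 1 of 3. These peaks were of moderate or short length, at the 15.6, 51.7 and 51.1 percentile of their lists, and with equal numbers of the longest peaks from each list (2061, a setting in which short peaks drop out) Nfkbia was no longer among the control-only genes, which then numbered 13. YY1 was called there only in the second YY1 library, the longest list, over 427 bp across the start. H3K4me3 covered 1264, 1095 and 1093 bp, in a stretch over the start and the stretch inside the gene, with the longer at the 52.6 to 56.3 percentile of length. Of the other 28 genes with SMC3 at an end in control libraries only, Mbd1, a gene for a methyl-CpG binding protein, was the 1 gene with the same calls as Nfkbia in all 12 lists. YY1 was called at an end in fewer than 2 libraries at 2 of the 29 control-only genes (6.9%), these being the same pair. Of the 1187 genes with SMC3 at an end in all 6 libraries, 0.168% had YY1 in 1 library and 0.0% in 0.

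Nfkbie, which encodes IkappaB epsilon, lies on chromosome 17 at 45555700 to 45563169. At its own start it carried H3K4me3 without YY1 or SMC3: the H3K4me3 peak there was 1860, 1932 and 898 bp long, and the third library had a further piece of 711 bp downstream. SMC3 peaks in the window covered 0, 241 and 72 bp in shYY1 libraries and 215, 445 and 0 bp in control libraries, so the arms overlapped. None of them was at the gene itself. An SMC3 region at 45552084 to 45552333, between Tmem151b and Nfkbie and 3367 bp from the annotated start of Nfkbie, was called in 1 shYY1 library and 2 control libraries; YY1 was called there in 1 library and H3K4me3 in 0. It was the only place in the 8 windows where SMC3 had no H3K4me3: 24 of 27 SMC3 peaks overlapped an H3K4me3 peak, against 94.2% of all 20043 SMC3 peaks, and the other 3 were in this region. The remaining SMC3 peaks in the window, 1 in each arm, and a YY1 region in 3 of 3 libraries lay at or within 436 bp of an end of the neighbouring gene Hsp90ab1; the window cut the shYY1 peak there to 72 of its 233 bp. YY1 near the other end of Nfkbie, in 2 libraries, lay at the end of Slc35b2, which accounts for 1 of the 4 genes counted with YY1 at an end above. Nfkbie is also among the genes counted above with YY1, shYY1 SMC3 and control SMC3 in the window. All of those peaks lay outside its span, and the shYY1 SMC3 peaks of its 2 libraries were at different places.

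Tnfaip3, which encodes A20, an ubiquitin-editing enzyme that shuts off signalling upstream of the kinases, lies on chromosome 10 at 19000910 to 19015410. SMC3 covered 159, 334 and 278 bp in shYY1 libraries and 397, 341 and 221 bp in control libraries, always across the start. The ranges overlapped, and the difference in means of -62.7 bp was smaller than the SD of either arm (89.4 and 89.9 bp, n = 3 each). The kappaB match at -12 lay inside the SMC3 peak in 3 of 3 shYY1 and 3 of 3 control libraries, and that at -125 in 1 of each. YY1 was called in the first and second libraries, over 366 and 476 bp, and not in the third, the shortest list. H3K4me3 formed 1 peak of 1189 to 1399 bp.

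**Figure D2:**
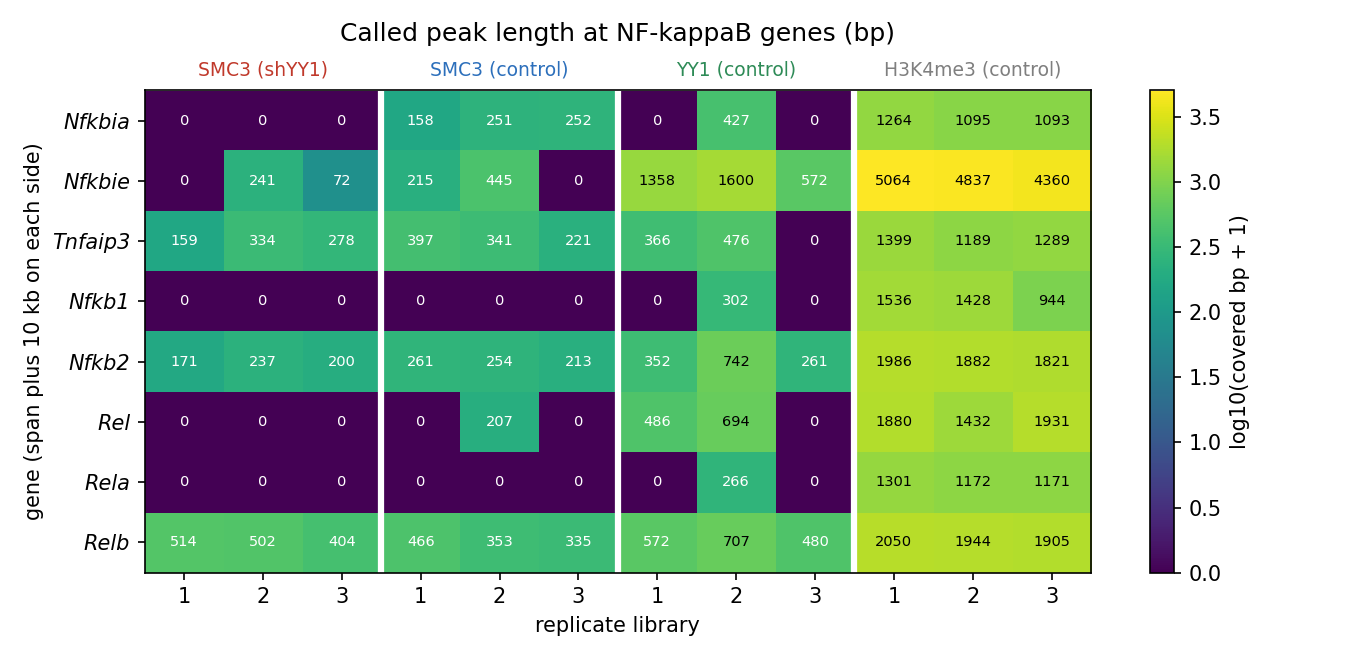
Base pairs of each gene's window (span plus 10 kb on each side) covered by called peaks in each of the 12 libraries, printed in the cells; colour is log10(covered bp + 1). The row of Nfkbia is 0 in all shYY1 SMC3 libraries and 158 to 252 bp in control SMC3 libraries, while Relb has 404 to 514 bp and 335 to 466 bp.

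Of the subunits, Nfkb1 and Nfkb2 encode the precursors that are cut to the DNA-binding subunits without an activation domain. Nfkb2, partner of Relb in the alternative pathway, lies on chromosome 19 at 46300994 to 46312400. SMC3 covered 171, 237 and 200 bp in shYY1 libraries and 261, 254 and 213 bp in control libraries. The ranges overlapped, with a difference in means of -40.0 bp against SDs of 33.1 and 25.9 bp. The peaks lay just upstream of the first listed start, with summits at -160, -158 and -226 in shYY1 libraries and at -246, -160 and -246 in control libraries, and none reached the kappaB matches there. YY1 was called at the same place in 3 of 3 libraries, over 352, 742 and 261 bp. H3K4me3 spanned all 3 listed starts in a peak of 1821 to 1986 bp, at the 98.2 to 98.8 percentile of its lists. These starts are 3743 to 4936 bp from an end of the span, so Nfkb2 is missed by every count of gene ends above; within 1000 bp of an annotated start, 6 of the 6 genes with one had H3K4me3 (49.0% of the 17491 genes with an annotated start), 3 YY1 (30.7%), 2 shYY1 SMC3 (11.3%) and 3 control SMC3 (14.7%), and Nfkbia was again the gene by which the arms differed.

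Nfkb1, on chromosome 3 at 135584655 to 135691969, had no SMC3 peak in any of the 6 libraries, although its window of 127315 bp was the longest of the 8. H3K4me3 near the upper end was called in 3 of 3 libraries in short pieces, the longest 539 to 634 bp (34.7 to 40.8 percentile), and a further H3K4me3 region at 135636307 to 135636799, deep inside the gene, was also called in 3 of 3. The single YY1 peak in the window, in the second library, lay in that inner region and not at the gene end. Its summit was at 135636578, the same base as the summits of all 3 H3K4me3 peaks there.

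Rel, Rela and Relb encode the subunits with an activation domain. Relb, on chromosome 7 at 19606217 to 19629438, had the highest mean SMC3 coverage of the 8 genes in both arms: 514, 502 and 404 bp in shYY1 libraries and 466, 353 and 335 bp in control libraries. The mean was 473 ± 60.3 bp in shYY1 and 385 ± 71.0 bp in control cells (SD, n = 3 each), and the ranges overlapped. These peaks ranked at the 88.0 to 95.8 percentile of length in shYY1 lists and 74.3 to 91.2 in control lists. They lay inside the gene, 350 to 529 bp from its upper end, where YY1 was called in 3 of 3 libraries over 572, 707 and 480 bp. H3K4me3 at this end was 1218 to 1312 bp long; a further H3K4me3 region in the window overlapped an end of the neighbouring gene Clasrp.

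Rel, the subunit prominent in lymphoid and myeloid cells, lies on chromosome 11 at 23736847 to 23770969. SMC3 covered 0, 0 and 0 bp in shYY1 libraries and 0, 207 and 0 bp in control libraries, a single peak at the 35.9 percentile of the longest control list. YY1 was called in the first and second libraries over 486 and 694 bp, with the summit at the same base, at -298, and both peaks contained the kappaB match. H3K4me3 was broad, 1432 to 1931 bp, at the 93.5 to 98.9 percentile. Rela, the main activating subunit of the classical pathway, on chromosome 19 at 5637442 to 5648134, had no SMC3 peak in any library. YY1 was called there only in the second library, over 266 bp, and H3K4me3 in all 3, over 1171 to 1301 bp.

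Summed over the 8 windows, SMC3 lists gave 3, 4 and 4 peaks in shYY1 and 5, 7 and 4 in control libraries, or 3.67 ± 0.577 and 5.33 ± 1.53 (SD, n = 3 each). The difference of -1.67 peaks was a little above the control SD, and the third control library, with the shortest list, overlapped the shYY1 libraries. The sum includes Nfkbia, which was selected for its difference; without it the libraries held 3, 4 and 4 peaks in shYY1 and 4, 6 and 3 in control, a difference of -0.667 that was below the control SD of 1.53. Per 1000 peaks of the list the values were 1.14, 1.24 and 1.32 in shYY1 and 1.11, 1.52 and 1.94 in control libraries, again overlapping. With equal numbers of longest peaks the difference was 0.0 peaks. Covered length was 844, 1314 and 954 bp in shYY1 and 1497, 1851 and 1021 bp in control libraries, a difference of -419 bp. Without Nfkbia the control libraries had 1339, 1600 and 769 bp and the difference was -199 bp, and with equal numbers of longest peaks from all 8 genes it was -19.0 bp. The second YY1 list, with 10699 peaks, had a peak in the window of all 8 genes (46.5% of all genes), the first, with 8469 peaks, at 5 (41.7%) and the third, with 3750 peaks, at 3 (22.6%). Of the 27 SMC3 peaks, 26 overlapped a YY1 peak of some library, against 96.9% of all SMC3 peaks, the exception being the inner peak at Nfkbia.

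**Figure D3:**
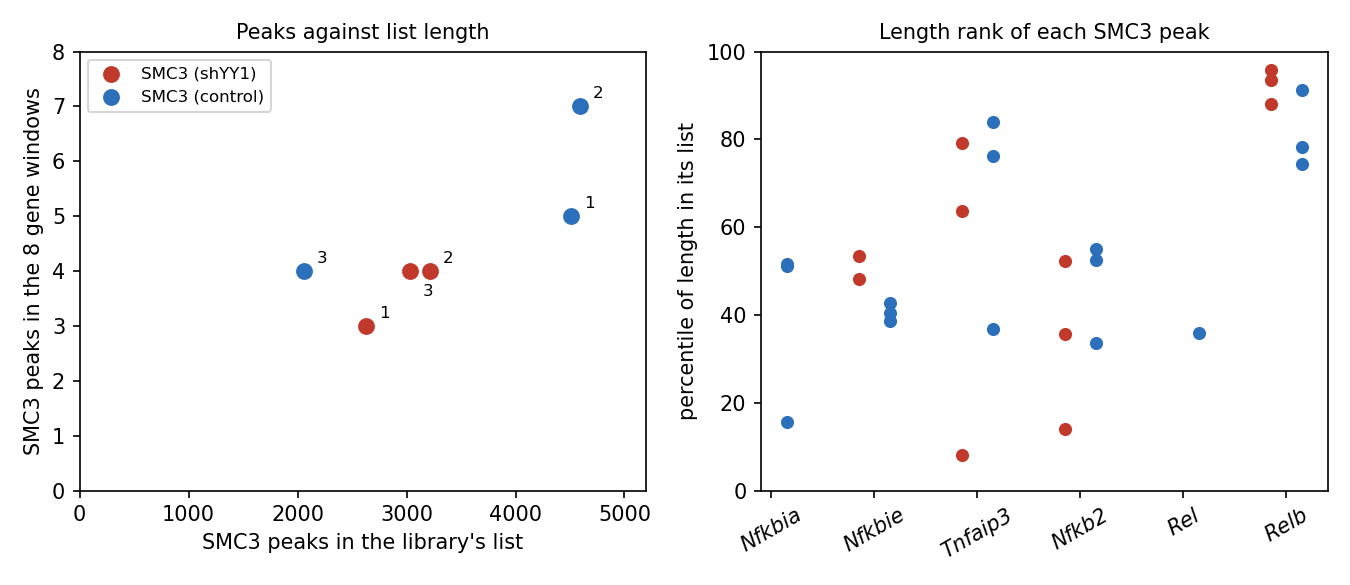
Left, SMC3 peaks in the 8 gene windows against the number of peaks in the library's list, 1 point per library, numbered by replicate. Right, the length of each SMC3 peak as a percentile of its list; shYY1 points are to the left of control points for each gene, with Relb at 88.0 to 95.8 and 74.3 to 91.2.

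The other genes of the pathway were taken from 5 lists with 90 genes, all of them found in the annotation. At gene ends, 63 had H3K4me3 (46.2% of all genes), 36 YY1 (28.2%), 17 shYY1 SMC3 (10.5%) and 26 control SMC3 (13.8%). Each count needed at least 2 of 3 libraries. All genes with YY1 or SMC3 in these counts were among the 63. For genes marked by H3K4me3 at an end the background was 61.1% for YY1, 22.7% for shYY1 SMC3 and 29.8% for control SMC3. Against it, 36 of 63 was slightly below for YY1, and 17 and 26 of 63 were above for SMC3. Of these 17 and 26, adaptors and ubiquitin enzymes held 10 and 16, with 23 of the 63 genes. Kinases held 1 and 1 of 7 and ligands and receptors 0 and 0 of 9, below the background. Other inhibitors and brakes held 3 and 4 of 11 and known target genes 3 and 5 of 13, near or above it. The order of the arms was not stable: 13 had SMC3 in shYY1 and 8 in control cells in 3 of 3 libraries, 13 and 11 with equal numbers of longest peaks, and 12 and 11 with the longer part of each list. By construction, the rule of 3 of 3 is bounded by the shortest list of each arm, 2631 peaks in shYY1 and 2061 in control cells. The pattern of Nfkbia, with 0 shYY1 and 3 control libraries, was met by 0 of the 90 (0.133% of all genes), and 7 had SMC3 in all 6 (5.42%). Both shares are of all genes, with or without H3K4me3. Ligands and receptors had H3K4me3 at 9 of 19 genes and YY1 or SMC3 in at least 2 libraries at 0. Ltb, on chromosome 17 and encoding lymphotoxin beta, had SMC3 at an end in 1 shYY1 and 1 control library; its neighbours Lta and Tnf, and Cd14, a co-receptor for bacterial lipopolysaccharide, had it in 0 of either arm.

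Adaptors and ubiquitin enzymes, which pass the signal from receptor to kinase, carried the marks most often of the 5 lists. H3K4me3 was at 23 of 25 (46.2% of all genes), YY1 at 17 (28.2%), shYY1 SMC3 at 10 (10.5%) and control SMC3 at 16 (13.8%). Among the 23 with H3K4me3, YY1 was above the 61.1% of all genes so marked. SMC3 was above their 22.7% in shYY1 and 29.8% in control. Bcl10 and Malt1, which act together in antigen receptor signalling, Irak4, a kinase of Toll-like receptor signalling, and Rbck1, a subunit of the linear ubiquitin ligase, had YY1 in 3 of 3 libraries and SMC3 in every library of both arms, as did Ripk1, a kinase of tumour necrosis factor receptor signalling that tied with them. Of 8 kinases, 7 had H3K4me3 (46.2% of all genes), 3 YY1 (28.2%) and 1 SMC3 in each arm (10.5% in shYY1, 13.8% in control). That gene was Map3k14, the NF-kappaB-inducing kinase of the alternative pathway, with SMC3 in 3 shYY1 and 2 control libraries. Among the 7 kinases with H3K4me3, YY1 was below the 61.1% of all genes so marked. SMC3 was below their 22.7% in shYY1 and 29.8% in control. Map3k7, which activates the IkappaB kinases, had SMC3 in 0 shYY1 libraries and 1 control library, and the IkappaB kinase genes Ikbkg and Chuk in 0 of either, with YY1 in 2 libraries at Ikbkg and in 0 at Chuk.

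Of 14 other inhibitors and brakes, 11 had H3K4me3 (46.2% of all genes), 6 YY1 (28.2%), 3 shYY1 SMC3 (10.5%) and 4 control SMC3 (13.8%). Among the 11 with H3K4me3, YY1 was below the 61.1% of all genes so marked. SMC3 was above their 22.7% in shYY1 and 29.8% in control. Cyld, a deubiquitinase, and Nfkbil1, an IkappaB-like gene, each had SMC3 in 3 shYY1 and 2 control libraries, and Otulin, which removes linear ubiquitin, in 2 and 2. Nfkbib, which encodes IkappaB beta, had SMC3 in 0 shYY1 and 2 control libraries, with YY1 in 3. Of 24 known target genes, 13 had H3K4me3 (46.2% of all genes), 10 YY1 (28.2%), 3 shYY1 SMC3 (10.5%) and 5 control SMC3 (13.8%). Among the 13 with H3K4me3, YY1 was above 61.1%, shYY1 SMC3 near 22.7% and control SMC3 above 29.8%, the shares of all genes so marked. Ier3, an immediate early gene, and Sod2, the mitochondrial superoxide dismutase, had SMC3 in every library, Myc in 2 shYY1 and 3 control libraries, and Ccnd2, a G1 cyclin gene, in 1 and 2. Over all genes the shYY1 count was 2293 and the control count 3010, and with equal numbers of longest peaks 1668 and 1685.

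**Figure D4:**
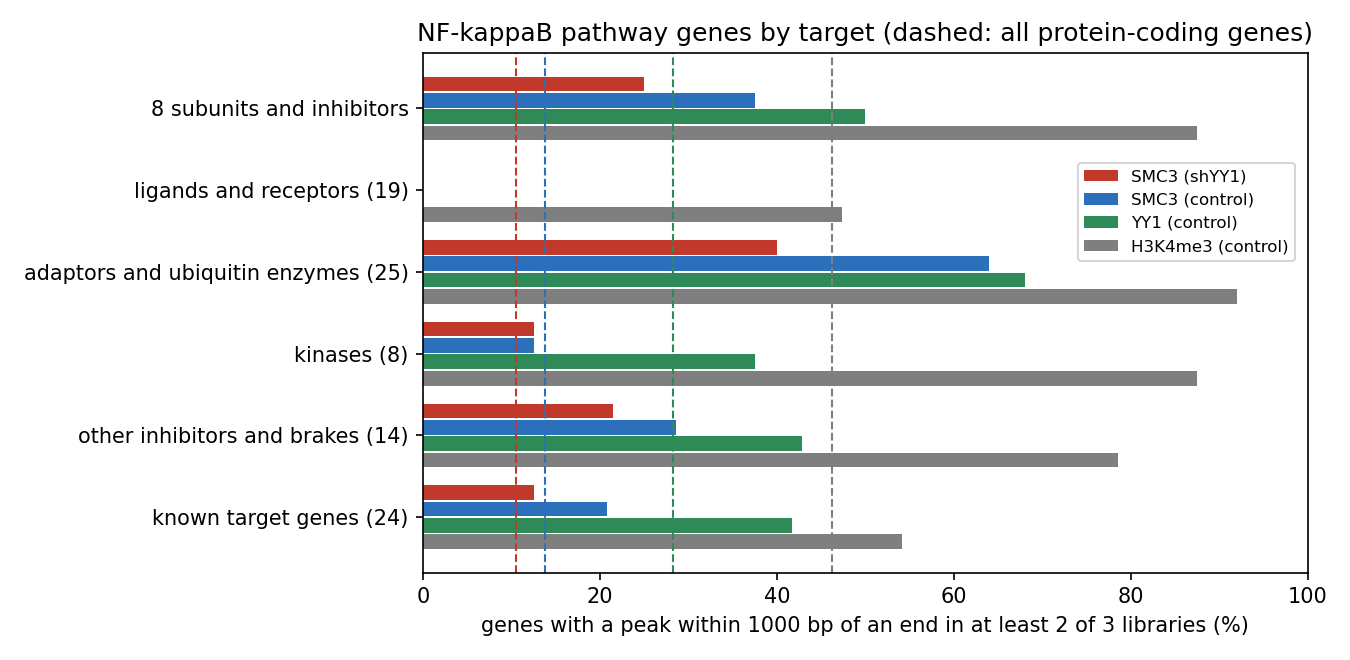
Share of genes with a peak within 1000 bp of a gene end in at least 2 of 3 libraries, in percent, by list (number of genes in brackets) and target; dashed lines give the share of all 21883 protein-coding genes. Of the 8 subunits and inhibitors, 2 have SMC3 in shYY1 cells and 3 in control cells, against the adaptors and ubiquitin enzymes 10 and 16 of 25, and the ligands and receptors 0 and 0 of 19.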

How the data were processed

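CUT&Tag peak positions were used from 12 libraries, 1 deposited list per library, with start, end and summit offset in base pairs and no score. The tools MACS2 2.2.9.1, Picard 3.1.1, Bowtie2 2.5.1 and cutadapt 4.5 and the build mm10 are named, without order or role, in the submitters' processing notes; the sources used here give no settings, threshold or use of IgG. Starts were counted from 0 in the lists and are given from 1 here. Gene spans and promoter windows came from RefSeq tables of GRCm38.p6, the assembly of mm10; of 8 genes, 6 had a promoter entry. A peak belonged to a gene when it shared at least 1 bp with the span plus 10 kb on each side, and to a gene end within 1000 bp of either end. A group counted as having a peak with at least 2 of 3 libraries. Peak length percentile, taken within each list, is the only rank the lists allow.

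The genes, lists, tests and the rule for named genes (all 8 genes, and of each list the 4 with SMC3 at an end in most libraries, ties by YY1 libraries and then by name; Ripk1, a tie, was added after its values were seen) were chosen with earlier results of these data known. Differences between arms at these genes are therefore described without a test. The label protocol calls the libraries biological replicates. Same-numbered libraries of the arms were checked for pairing. The calculations were done with Python 3.11.15, numpy 2.4.6 and pandas 2.3.3, and the overlap step was tested on simulated peak lists. Alternatives were peak overlap, window and gene-end width, 3 of 3 libraries, the longer peaks, equal list lengths, leaving out libraries and a replicate block; annotated starts, the genome-wide count, the control-only genes and the pathway lists were further ones, chosen after seeing the data. No score was there for a stricter threshold, so the longer part of each list stood in for it.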

Additional observations from a re-analysis of the deposited data

How the results depend on the processing

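H3K4me3 counts (8 in the window, 7 at an end) and SMC3 counts at gene ends (2 in shYY1, 3 in control) moved by no more than 1.5 times in any setting run. With equal numbers of longest peaks, however, SMC3 at an end was at 2 genes in each arm. The difference between the arms was absent in that setting. The count of genes with YY1 in the window (5) was 3 with 3 of 3 libraries and 3 to 8 on leaving out 1 library, and YY1 at an end (4) was 1 with 3 of 3 and 1 to 6; here a stricter or looser rule follows by construction. SMC3 in the window was at 2 genes in shYY1 and 4 in control with the longer part of each list, and at 4 and 3 with equal numbers of longest peaks, where the order of the arms turned round. In that setting the difference in SMC3 peaks over the 8 windows (-1.67) was 0.0; leaving out 1 library gave -2.33 to -0.833, and the difference in covered length (-419 bp) -637 to -222; the covered length differed by -19.0 bp with equal numbers of longest peaks, -133 with the longer part of each list and -149 over the span alone. Without Nfkbia, an alternative added after seeing the data, they were -0.667 peaks and -199 bp. The genome-wide difference of -764 peaks was -369, -327 and -1594 without control library 1, 2 and 3, in that order (exact permutation p = 0.8, 0.8 and 0.1, the last being the smallest that 3 against 2 libraries can give), and -206 without both libraries named Abcam.

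Control-only genes at an end (29) numbered 13 with equal numbers of longest peaks and 20 with the longer part of each list. Nfkbia was in neither. Without both libraries named Abcam there were 80. Leaving out 1 library gave 43 to 346, the highest without the third control library. The count was over 1.5 times the main one for each library but the first control one. Leaving out libraries can only add genes to this count. Nfkbia was therefore in each of these by construction, and they do not test it. Pathway genes with SMC3 (17 in shYY1, 26 in control) were 13 and 8 with 3 of 3 libraries, 13 and 11 with equal numbers of longest peaks and 12 and 11 with the longer part of each list, so the order of the arms turned round in all 3. With 3 of 3 libraries each count is bounded by the shortest list of its arm, by construction. Over all genes (2293 in shYY1, 3010 in control) the counts were 1542 and 1556, 1668 and 1685, and 1223 and 1577 in the same settings; the cause was not tested. A replicate block gave the same differences, -1.67 peaks, -419 bp and -764 peaks genome-wide (exact sign-flip p = 0.5, the smallest possible being 0.25). Same-numbered libraries of the arms did not deviate together (r across 3393 genes of -0.005, 0.006 and -0.039). The calls thus gave no sign of pairing. Calls without depth cannot show whether the libraries were prepared as pairs. The lists hold no depth, so how far a missing peak reflects depth was not tested.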

Other observations

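SMC3 summits often fell on exactly the same base as a summit of another library. At Nfkb2 the base 46304577 was the summit in the first shYY1 SMC3 library, the second control SMC3 library, the first YY1 library and H3K4me3 libraries 1 and 3, and 46304491 was the summit in control SMC3 libraries 1 and 3 and YY1 library 2. At Nfkbia the summit of the first control SMC3 peak was at the base of all 3 H3K4me3 summits inside the gene. Of the 27 SMC3 peaks in the 8 windows, 8 (29.6%) shared their summit base with a peak of another list and 4 (14.8%) with an H3K4me3 peak. Over all 20043 SMC3 peaks the shares were 34.9% and 11.5%. Why separate libraries share bases was not tested.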
